A study of Mus musculus with 8 samples.

Results

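Bone morphogenetic protein (BMP) signalling was examined through 8 genes, the type I receptor gene Bmpr1a, the receptor-activated SMAD genes Smad1 and Smad5, the inhibitory SMAD genes Smad6 and Smad7, and the target genes Id1, Id2 and Id3, out of 13444 genes with a value in the series. The genes were given by name, with no threshold on their values. A row of the event tables was used for a gene if it carried that gene's Ensembl ID, unless it met exon boundaries of another gene only in the GRCm38 annotation. A gene's level was the sum of FPKM (fragments scaled to transcript length and to the mapped fragments of the library) over its transcription start rows, or over its transcription end rows where their mean was higher. All 8 genes were read from their start rows. The tables hold no value of 0, so a level of 0 given for a gene means that the rows used for it were absent in that sample.

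The samples were small intestinal crypt organoids, which are epithelial buds grown from crypts in Matrigel with IntestiCult OGM medium and passaged every 5 days. The WT group held 4 samples labelled wt, from littermates, and the MG53-TG group held 4 samples labelled mg53-tg, from mice overexpressing MG53, the muscle-enriched TRIM family protein encoded by Trim72. The promoter that drives the transgene, the age and sex of the mice and the passage number were not given in the sources used here. One passage of the study's text calls the organoids MG53;Lgr5 and Lgr5, a cross with the Lgr5-EGFP-IRES-CreERT2 line, whereas the sample labels name MG53-TG and wild type only. The labels do not say whether the 4 samples of a group came from separate mice, so p-values measure the spread between these samples, which may be technical.

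BMP ligands bind pairs of type I and type II receptor kinases, and the activated type I receptor phosphorylates SMAD1 and SMAD5 on serines at their C-terminal end. The phosphorylated SMADs join SMAD4 in the nucleus and switch on Id genes, whose proteins bind basic helix-loop-helix (bHLH) factors and keep them off DNA, while SMAD6 and SMAD7 close a feedback loop. In the small intestine BMP activity is low at the crypt base, where antagonists from the surrounding mesenchyme hold it down, and high on the villus.

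In MG53-TG organoids Bmpr1a, Smad1 and Id2 were lower than in WT, whereas no difference was detected for Smad5, Smad7, Id1 or Id3, and Smad6 was near 0. Bmpr1a fell by 33.5%, Id2 fell by 34.3% and Smad1 fell by 25.7% of the WT mean. In these 3 genes each MG53-TG sample lay under each WT sample. Of the 7 members tested, 3 were lower and 0 higher with limma (adjusted p at most 0.05). The same numbers were found at an unadjusted p under 0.05. The Smad1 call was lost when samples were scaled by the median of ratios or by quantiles. It was also lost with the replicate number as a block, and was kept in 4 of 8 fits without 1 sample. Across all 10417 genes tested, 44.7% were called, 29.1% lower and 15.6% higher (20.4% and 20.5% with median-of-ratios scaling). MG53-TG samples lay all under the WT samples for 29.0% and all above them for 15.7%, so 3 called of 7 stood near the share over all genes.

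**Figure D1:**
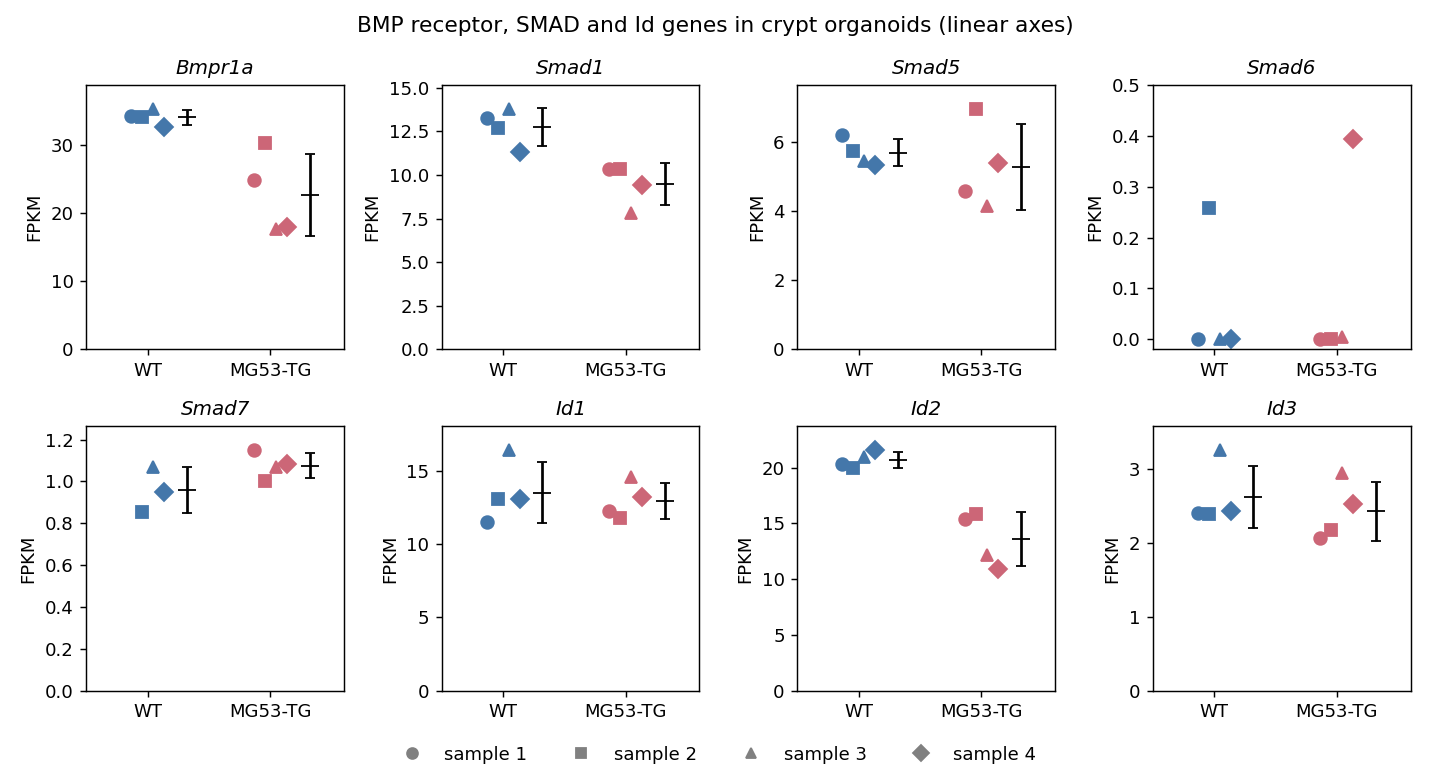
FPKM on linear axes of the 8 genes in 4 WT (blue) and 4 MG53-TG (red) organoid samples, with the marker shape giving the sample number and black bars the mean ± SD, which are left out for Smad6. The groups are apart for Bmpr1a, Smad1 and Id2, and they overlap for the other genes. The start row of Smad7 was absent in WT sample 1, which is not drawn.

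Trim72 itself had no row in any of the 4 WT samples while MG53-TG samples 1 to 4 reached 16.4, 27.4, 31.9 and 36.5 FPKM, so rows for the transgene's product were seen in the samples labelled MG53-TG only. An absent row does not show that a transcript is lacking. Over 10063 genes, samples of WT had Pearson r of at least 0.9699 with each other. MG53-TG samples 1 and 2 (r = 0.9755) and MG53-TG samples 3 and 4 (r = 0.972) formed separate pairs, with r of 0.938 to 0.953 between the pairs. MG53-TG samples 3 and 4 also lay farther from WT (r up to 0.8467) than samples 1 and 2 (r from 0.8934). The summed FPKM over start rows ranged from 268767 to 283877 in the 8 samples, and the sequencing depth is unknown because the tables hold no counts.

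All 7 epithelial markers were present in every sample, with 4 called lower (Cdh1, Krt8, Krt18 and Cldn7), 1 higher (Vil1) and 2 not called (Epcam and Krt19) by limma, and the calls of Krt8 and Cldn7 were lost under median-of-ratios scaling. Epcam was at 398 to 490.2 FPKM in WT and 409.6 to 507 FPKM in MG53-TG, whereas Cdh1 was at 217 to 227.5 and 120.3 to 133.7 FPKM. All 12 enterocyte markers rose, against 15.6% of all genes, with a summed level of 617 to 749 FPKM in WT and 8677 to 11508 FPKM in MG53-TG. Of 9 stem cell markers 7 fell, against 29.1% of all genes (6 under median-of-ratios scaling, where Prom1 lost its call). The sum of the 9 was 566 to 736 FPKM in WT and 95.3 to 345 FPKM in MG53-TG. Tnfrsf19, 1 of the 7, was missing in MG53-TG samples 3 and 4, so its test rested on samples 1 and 2 of that group. It counted as 0 in the sums of samples 3 and 4. Of 10 proliferation markers 8 fell, from sums of 517 to 558 FPKM in WT to 136 to 384 FPKM in MG53-TG. In bulk RNA, fewer cells of a type and less RNA per cell cannot be told apart, and the part of these shifts in the results on BMP genes was not tested. Of 12 mesenchyme markers, 6 had no entry (Pdgfra, Pdgfrb, Lum, Acta2, Tagln and Foxl1), 4 were at 0 in all WT samples because the rows used were absent there (Col1a1, Col1a2, Col3a1 and Dcn), and their sum was 1.80 to 3.24 FPKM in WT and 1.31 to 5.65 FPKM in MG53-TG. Col1a2 and Col3a1 were at 0.739 to 2.07 FPKM in MG53-TG samples 2 to 4 and their rows were absent in sample 1. They passed the filter on low values only through these 3 samples, so no test is given for them. Endothelium was represented by Esam alone of 7 markers (2.07 to 3.42 FPKM in WT, 1.14 to 2.07 in MG53-TG), and the 8 immune markers summed to at most 0.296 FPKM in any sample.

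FPKM is scaled to transcript length, so levels of different genes can be set side by side, as far as their starts are listed. In WT the order of mean levels was Bmpr1a (34.1 FPKM), Id2 (20.7), Id1 (13.5), Smad1 (12.8), Smad5 (5.68), Id3 (2.62) and Smad7 (0.958), with Smad6 under 0.3 in each sample. Id1 and Smad1 did not differ beyond their spread in WT, since their ranges of 11.5 to 16.4 and 11.3 to 13.8 FPKM overlapped. In MG53-TG the order of the means was the same, but Id2 (13.6 FPKM) was close to Id1 (12.9 FPKM) and lay under it in samples 3 and 4. The ranges of all other neighbours in the order were apart within each group. By listed starts, Bmpr1a was thus the highest of the set in every sample, and the highest Id gene differed between samples of the MG53-TG group.

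Bmpr1a (ENSMUSG00000021796; chr14:34410734-34503341, minus strand, GRCm38) encodes the type I BMP receptor BMPR1A, also called ALK3. Its level was 34.2, 34.1, 35.3 and 32.6 FPKM in WT samples 1 to 4. In MG53-TG samples 1 to 4 it was 24.8, 30.3, 17.7 and 17.9 FPKM. The groups did not overlap, and MG53-TG samples 3 and 4 were lowest while sample 2 came closest to the lowest WT sample. The means were 34.1 ± 1.09 FPKM (SD, n = 4) in WT and 22.7 ± 6.04 FPKM (SD, n = 4) in MG53-TG. On the log2(FPKM + 1) scale, which understates changes of low genes, Bmpr1a fell by 0.60 (SE 0.17, 95% interval -0.98 to -0.22, limma adjusted p = 0.0186, exact permutation p = 0.0286, the smallest that 70 relabellings of 4 against 4 allow).

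Nearly all of the Bmpr1a signal came from 1 transcription start. The first exon at chr14:34502395-34502687 held 98.5% to 99.5% of the start FPKM in WT and 94.7% to 98.9% in MG53-TG, while a second start carried 0.182 to 0.949 FPKM. The share of the leading start did not pass the test (difference -1.64 percentage points, exact permutation p = 0.2, adjusted p = 0.5 over 5 shares). The leading start alone was at 32.4 to 34.9 FPKM in WT and 17.0 to 29.9 FPKM in MG53-TG. An annotated antisense gene inside Bmpr1a, Gm17110, had no entry, and whether the libraries keep the strand was not given in the sources used here. The bases just upstream of this first exon are printed because the fall was carried by transcripts that begin there, and they come from the RefSeq promoter window of GRCm38.p6 (250 bases before to 50 after the RefSeq start), cut at the first annotated exon. The sequence is chr14:34502688-34502796 on the minus strand, with capitals marking GGCGCC, the GC-rich element known from the Id1 enhancer.
Bmpr1a: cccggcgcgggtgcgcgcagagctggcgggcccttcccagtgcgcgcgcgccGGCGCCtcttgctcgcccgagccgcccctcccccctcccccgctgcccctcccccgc

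From the first exon, transcripts that skip a 137-base exon (chr14:34486205-34486341) joined 1 of 2 splice acceptors that lie 3 bases apart, at chr14:34460615 and chr14:34460612. Forms with this exon were listed in 1 sample only, MG53-TG sample 2 (0.171 FPKM). The upstream acceptor took 21.1%, 20.2%, 16.1% and 16.9% of the skipped forms in WT samples 1 to 4 and 18.2%, 30.4%, 26.8% and 35.6% in MG53-TG samples 1 to 4. Its share was higher in MG53-TG samples 2 to 4 than in any WT sample, and sample 1 lay within the WT range. The mean share was 18.6% ± 2.44 (SD, n = 4) in WT and 27.8% ± 7.29 (SD, n = 4) in MG53-TG, given without a test. In absolute terms the forms with the downstream acceptor went from 26.6 to 29.2 FPKM in WT to 10.95 to 20.7 FPKM in MG53-TG without overlap, whereas those with the upstream acceptor overlapped, at 5.49 to 7.13 and 4.48 to 9.06 FPKM.

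**Figure D2:**
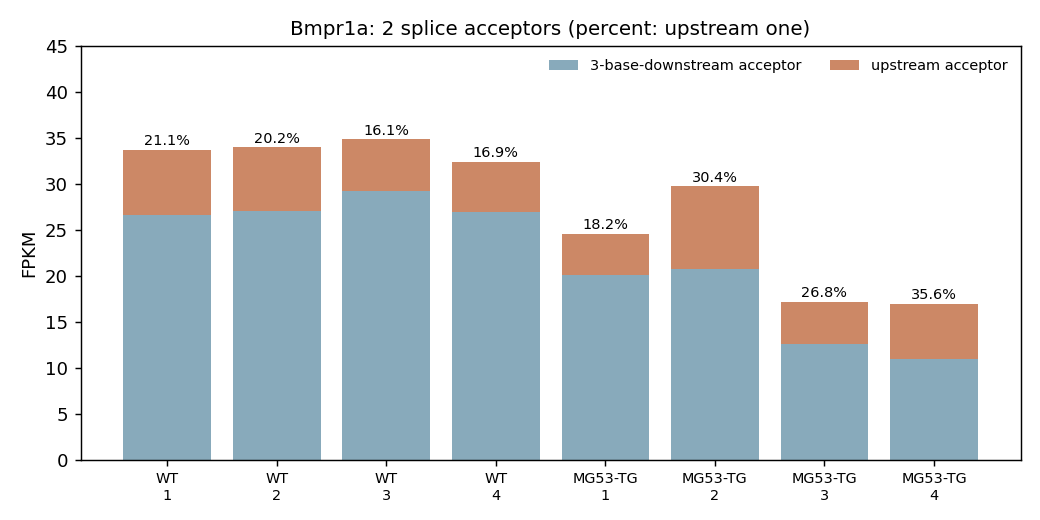
FPKM of Bmpr1a transcripts that join the downstream (blue) or the upstream (orange) of 2 acceptors 3 bases apart, stacked for each of the 8 samples, with the percentage of the upstream acceptor above each bar. The upstream share is 16.1% to 21.1% in WT and reaches 35.6% in MG53-TG sample 4.

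Smad1 (ENSMUSG00000031681; chr8:79338395-79399518, minus strand) encodes one of the SMADs that BMP receptors phosphorylate. Its level was 13.3, 12.7, 13.8 and 11.3 FPKM in WT and 10.3, 10.3, 7.81 and 9.41 FPKM in MG53-TG. Every MG53-TG sample lay under every WT sample, with the lowest WT sample (4) and the highest MG53-TG sample (2) separated by less than the SD of either group. The means were 12.8 ± 1.07 and 9.47 ± 1.19 FPKM (SD, n = 4 each), and Smad1 fell by 0.40 (log2, SE 0.12, 95% interval -0.66 to -0.13, limma adjusted p = 0.0241, exact permutation p = 0.0286). This call was the least stable of the 3. It was lost when samples were scaled by the median of ratios (log2 difference -0.22, adjusted p = 0.118) or by quantiles (-0.22, adjusted p = 0.117), and in the limma fits without WT sample 1, 2 or 3 or without MG53-TG sample 3 (adjusted p from 0.0544 to 0.0632).

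Smad1 was read from 2 starts. The leading one, the first exon at chr8:79399253-79399518, was at 10.7 to 12.3 FPKM in WT and 7.0 to 8.95 FPKM in MG53-TG, again without overlap. The other, at chr8:79372453-79372654, meets no annotated exon boundary, was at 1.38 to 2.41 FPKM in 6 samples and had no row in WT sample 4 and MG53-TG sample 3. These were the lowest samples of their groups for the summed level. The share of the leading start was 82.8% to 100% in WT and 74.4% to 100% in MG53-TG (difference -3.26 percentage points, exact permutation p = 0.657, adjusted p = 0.657). The end of the longest Smad1 transcript has no row, so end rows caught little of the gene, and the leading end row (chr8:79341580-79343910) was at 0.587 to 2.49 FPKM in 7 samples but fell to 6e-06 FPKM in MG53-TG sample 3. The bases upstream of the leading start, chr8:79399519-79399678 on the minus strand (RefSeq, GRCm38.p6), are shown for the same reason as those of Bmpr1a and held no GGCGCC.
Smad1: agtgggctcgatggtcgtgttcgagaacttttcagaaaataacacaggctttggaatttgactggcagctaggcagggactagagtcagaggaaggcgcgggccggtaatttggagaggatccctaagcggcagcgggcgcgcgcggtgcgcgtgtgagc

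Smad5 (ENSMUSG00000021540; chr13:56703010-56742377, plus strand), the close relative of Smad1 with the same role, showed no detectable difference. Its level was 6.20, 5.74, 5.45 and 5.33 FPKM in WT and 4.58, 6.94, 4.15 and 5.39 FPKM in MG53-TG. The MG53-TG samples lay on both sides of the WT range, with sample 2 highest and sample 3 lowest of all 8. The log2 difference was -0.11 (SE 0.15, 95% interval -0.44 to 0.22, limma adjusted p = 0.568), and its sign turned under median-of-ratios scaling (0.05) and quantile normalization (0.06). The leading of its 3 starts held 81.5% to 100% of the start FPKM, and a second start reached 1.27 FPKM in MG53-TG sample 2 but no more than 0.364 FPKM in the 6 other samples that list it. In MG53-TG sample 1 this second start had no row, and the row for transcripts that skip a 103-base exon was at 6.44 FPKM against 4.58 FPKM from the starts, so the listed starts do not hold the whole level there. By that skip row, the highest single event of Smad5, the log2 difference was 0.00717 (limma adjusted p = 0.973).

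The coding sequences of Smad1 and Smad5 were identical at 77.5% of 1385 aligned bases, and the longest identical run was 17 bases. Within a sample, Smad1 was 2.12 to 2.53 times Smad5 in WT and 1.49 to 2.26 times in MG53-TG. The groups overlapped through MG53-TG sample 1 (2.26), and the log2 ratio differed by -0.29 (exact permutation p = 0.114, adjusted p = 0.19 over 5 pairs of members). This overlap rested on the incomplete start value of Smad5 in that sample. With Smad5 read from its skip rows, a choice made after seeing the data, the ratio was 2.12 to 2.53 in WT and 1.49 to 1.88 in MG53-TG without overlap, and the log2 ratio differed by -0.39 (exact permutation p = 0.0286, adjusted p = 0.143). The ends of their coding sequences are printed below because they carry the serines that the receptor phosphorylates, with the last 4 codons in capitals, which in both genes read serine, serine, any residue, serine. Smad6, an inhibitory SMAD, ends without these codons. Each is the last 60 coding bases of the gene's longest complete coding sequence in the GENCODE annotation, before the stop codon.
Smad1: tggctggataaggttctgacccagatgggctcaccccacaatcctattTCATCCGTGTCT
Smad5: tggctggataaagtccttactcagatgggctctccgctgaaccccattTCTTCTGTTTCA
Smad6: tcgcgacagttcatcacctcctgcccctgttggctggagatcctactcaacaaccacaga

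The 3 Id genes encode short helix-loop-helix proteins without a DNA-binding region, and they are the classical direct targets of BMP-activated SMADs. Their coding sequences differ in length (504 bases in Id1, 465 in Id2 and 357 in Id3 in the longest annotated form) but share a central stretch that encodes the helix-loop-helix. It is printed as 120 in-frame coding bases, from coding base 178 of Id1, 109 of Id2 and 124 of Id3, to show how alike the genes are whose levels are compared next. Capitals mark the 77 bases (64.2%) that all 3 genes share.
Id1: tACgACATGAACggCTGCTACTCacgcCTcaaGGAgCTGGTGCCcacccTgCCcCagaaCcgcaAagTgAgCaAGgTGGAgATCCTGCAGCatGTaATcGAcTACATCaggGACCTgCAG
Id2: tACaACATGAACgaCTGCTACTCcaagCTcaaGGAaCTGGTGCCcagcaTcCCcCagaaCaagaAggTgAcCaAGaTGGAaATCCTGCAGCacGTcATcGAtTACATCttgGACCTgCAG
Id3: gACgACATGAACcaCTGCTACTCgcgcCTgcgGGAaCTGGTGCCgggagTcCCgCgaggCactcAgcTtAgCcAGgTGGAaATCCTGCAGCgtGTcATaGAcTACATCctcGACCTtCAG
Over their aligned coding bases Id1 and Id2 were 71.8% identical, Id1 and Id3 70.2% and Id2 and Id3 69.3%, and the longest identical run was 15 bases, between Id2 and Id3.

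Id2 (ENSMUSG00000020644; chr12:25093799-25097140, minus strand) was the Id gene called by the test. Its level was 20.3, 19.9, 21.0 and 21.6 FPKM in WT and 15.4, 15.9, 12.1 and 10.9 FPKM in MG53-TG. The WT samples lay close together, all MG53-TG samples were lower, and samples 3 and 4 were lowest, as for Bmpr1a. The means were 20.7 ± 0.728 and 13.6 ± 2.45 FPKM (SD, n = 4 each), and Id2 fell by 0.59 (log2, SE 0.13, 95% interval -0.88 to -0.29, limma adjusted p = 0.00657, exact permutation p = 0.0286). Its single start and single end carried the same FPKM in each sample, and the row for its spliced intron at chr12:25095374-25095663 did too. The bases of the RefSeq promoter window that lie outside annotated exons, chr12:25096254-25096342 on the minus strand (GRCm38.p6), are shown because Id2 fell, with GGCGCC in capitals.
Id2: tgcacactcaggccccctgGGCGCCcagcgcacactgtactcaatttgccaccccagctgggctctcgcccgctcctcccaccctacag

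Motifs were counted on both strands of the RefSeq windows, which covered 6 of the 8 members, with no entry for Id1 and Smad7. GGCGCC was found in the windows of Id2, Bmpr1a and Smad5 and in 11.9% of 32851 promoters. GTCTAGAC, a palindrome of the SMAD-binding box, was found at Smad6, starting 4 bases before its start site, and in 0.213% of promoters. CAGACA was found in no member's window and in 21.0% of promoters, and GCCGNCGC was found at Smad5 and Bmpr1a and in 9.76%, overlapping the GGCGCC match at Bmpr1a. These are matches of letters only, and members that fell (Id2, Bmpr1a) and 1 that showed no difference (Smad5) shared GGCGCC.

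Id1 (ENSMUSG00000042745; chr2:152736251-152737410, plus strand) was at 11.5, 13.1, 16.4 and 13.1 FPKM in WT and at 12.2, 11.7, 14.6 and 13.2 FPKM in MG53-TG. The groups overlapped throughout, and sample 3 was the highest of each group. The means were 13.5 ± 2.06 and 12.9 ± 1.25 FPKM (SD, n = 4 each), and the log2 difference was -0.05 (SE 0.13, 95% interval -0.34 to 0.23, limma adjusted p = 0.757). The sign turned with median-of-ratios scaling (0.13) and quantile normalization (0.11). Part of the high value in WT sample 3 came from a second start row, chr2:152736261-152736750, whose exon ends 5 bases past the annotated one and which was listed in WT samples 2 (1.34 FPKM) and 3 (3.48 FPKM) only. The share of the leading start was 78.7% to 100% in WT and 100% in all MG53-TG samples (exact permutation p = 0.429, adjusted p = 0.657).

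Id3 (ENSMUSG00000007872; chr4:136143497-136145755, plus strand) was the least abundant of the Id genes tested. Its level was 2.41, 2.39, 3.25 and 2.42 FPKM in WT and 2.06, 2.17, 2.94 and 2.52 FPKM in MG53-TG. Again the groups overlapped and sample 3 was the highest of each. The log2 difference was -0.08 (SE 0.13, 95% interval -0.38 to 0.22, limma adjusted p = 0.656), and its sign turned under both other scalings (0.06 each). The fourth family member, Id4, was at 0.199 to 0.252 FPKM in WT and had no row in any MG53-TG sample, under the minimum for the test.

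Within samples Id1 and Id3 moved in proportion. Their FPKM ratio was 4.78, 5.48, 5.05 and 5.39 in WT and 5.94, 5.41, 4.96 and 5.22 in MG53-TG, and the log2 ratio differed by 0.03 (exact permutation p = 0.629, adjusted p = 0.629). The ratio of Id1 to Id2 was 0.567, 0.656, 0.781 and 0.606 in WT and 0.792, 0.739, 1.20 and 1.21 in MG53-TG. It was highest in MG53-TG samples 3 and 4, while MG53-TG sample 2 lay under WT sample 3, and the log2 ratio differed by 0.54 (exact permutation p = 0.0571, adjusted p = 0.19). The ratio of Id2 to Id3 differed by -0.51 (exact permutation p = 0.0857, adjusted p = 0.19). None of the Id ratios passed at an unadjusted p under 0.05, so Id2 fell in the test across all genes but a difference between its response and those of Id1 and Id3 was not shown.

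Smad6 (ENSMUSG00000036867; chr9:63953076-64022059, minus strand) and Smad7 (ENSMUSG00000025880; chr18:75367529-75395935, plus strand) encode the inhibitory SMADs, which BMP and TGF-beta signals induce as feedback. Smad6 was listed in 3 of 8 samples, namely WT sample 2 (0.259 FPKM), MG53-TG sample 3 (0.00431 FPKM) and MG53-TG sample 4 (0.394 FPKM). These levels were under the minimum mean of 0.5 FPKM for the test, and in a limma fit without that minimum the log2 difference was 0.04 (95% interval -0.26 to 0.34, adjusted p = 0.838). Smad7 was at 0.854, 1.07 and 0.951 FPKM in WT samples 2 to 4 and at 1.15, 1.00, 1.07 and 1.08 FPKM in MG53-TG. Its start row was absent in WT sample 1, which was treated as missing, although a row for an included 75-base exon was listed there at 0.501 FPKM. The groups overlapped, and the log2 difference was 0.08 (SE 0.12, 95% interval -0.19 to 0.36, limma adjusted p = 0.595). It was 0.18 by that exon's row, which has all 8 samples (adjusted p = 0.293), and 0.33 with the absent start taken as 0 (adjusted p = 0.279). The log2 ratio of Smad6 to Smad7 differed by -0.07 (3 WT samples, 35 relabellings, exact permutation p = 0.514, adjusted p = 0.629). Since Smad6 was listed in 3 of 8 samples only, this ratio mostly follows Smad7 and decides nothing about the pair.

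The genes most like each Id gene were ranked by Pearson r of log2(FPKM + 1) over the 8 samples, among 8701 genes averaging 2 FPKM or more. For Id1 these were Ppp3ca (r = 0.9913), Skil (0.9389) and Fchsd2 (0.9378), and none of them was called between the groups. For Id3 they were Rpl37 (0.9693), B3gntl1 (0.9471) and Lgals9 (0.9434), likewise not called. For Id2 they were Phf6 (0.9979), Nap1l1 (0.9972) and Naf1 (0.9969), each of which fell. Nap1l1 went from 44.2 to 55.0 FPKM in WT to 1.66 to 13.4 FPKM in MG53-TG. The r of Id1 with Id3 was 0.905 and that of Id1 with Id2 was 0.0003, whereas Id2 had r of 0.9603 with Bmpr1a and 0.868 with Smad1. The samples form separate groups and share the scaling of their libraries, so these values describe likeness only.

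**Figure D3:**
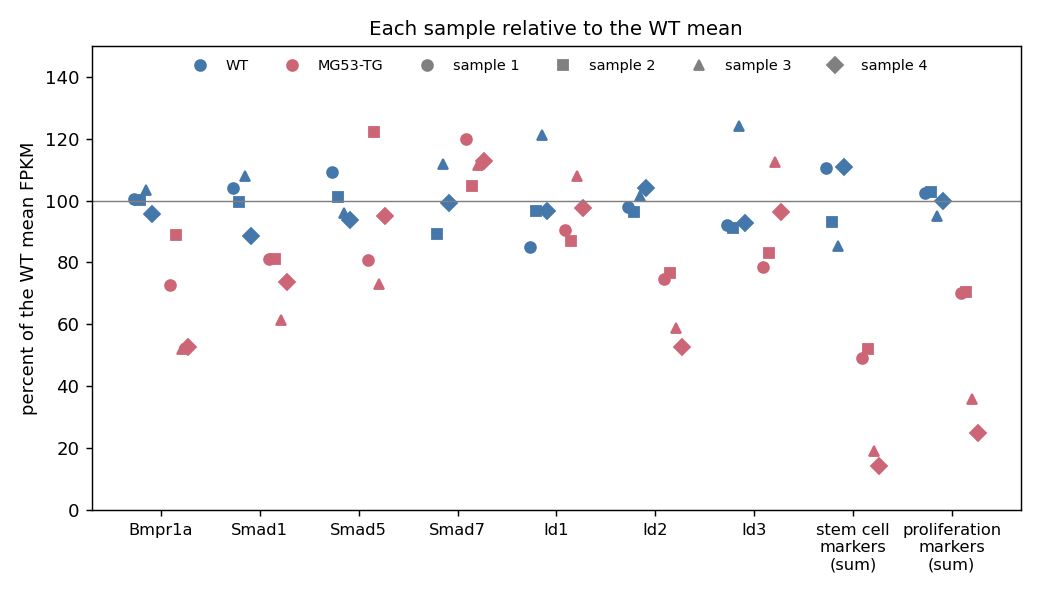
FPKM of each sample as a percentage of the WT mean, for 7 members and for the summed stem cell and proliferation markers, with WT in blue, MG53-TG in red and the marker shape giving the sample number. MG53-TG samples 3 and 4 are lowest for Bmpr1a, Smad1, Id2 and both marker sums but not for Smad5, Smad7, Id1 or Id3.

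The pairs of MG53-TG samples differed in the members that fell. Relative to the WT mean, Bmpr1a was at 72.8% and 88.8% in MG53-TG samples 1 and 2 and at 51.9% and 52.7% in samples 3 and 4. Id2 was at 74.6% and 76.8% in the first pair and at 58.7% and 52.7% in the second. Smad1 was at 81.0% and 81.1% in the first pair and at 61.3% and 73.8% in the second. The summed stem cell markers followed the same order, at 49.0% and 52.0% against 19.1% and 14.35%, and so did the proliferation markers, at 70.0% and 70.5% against 35.8% and 24.9%. With MG53-TG samples 1 and 2 alone, where 22.3% of all genes were lower, the log2 difference was -0.30 for Bmpr1a, -0.38 for Id2 and -0.28 for Smad1. With samples 3 and 4 alone, where 38.1% of all genes were lower, Bmpr1a was at -0.90, Id2 at -0.79 and Smad1 at -0.52. The pairs were split after samples 3 and 4 were seen as lowest for these genes. Smaller falls with samples 1 and 2 and larger falls with samples 3 and 4 were thus fixed in advance. No p-values are therefore given for either comparison.

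The scale of the samples mattered for how many genes fell and rose, and which scale is right was not tested. The median log2 difference over all genes tested was -0.17, and it moved by 0.16 under median-of-ratios scaling and by 0.12 under quantile normalization. The calls over all genes went from 15.6% higher and 29.1% lower to 20.5% and 20.4% with the former and to 18.9% and 23.3% with the latter. Bmpr1a (-0.42, limma adjusted p = 0.0291; -0.49, adjusted p = 0.0192) and Id2 (-0.41, adjusted p = 0.00974; -0.44, adjusted p = 0.00752) remained lower under both. Smad7 was at 0.18 and 0.17 and was not called.

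**Figure D4:**
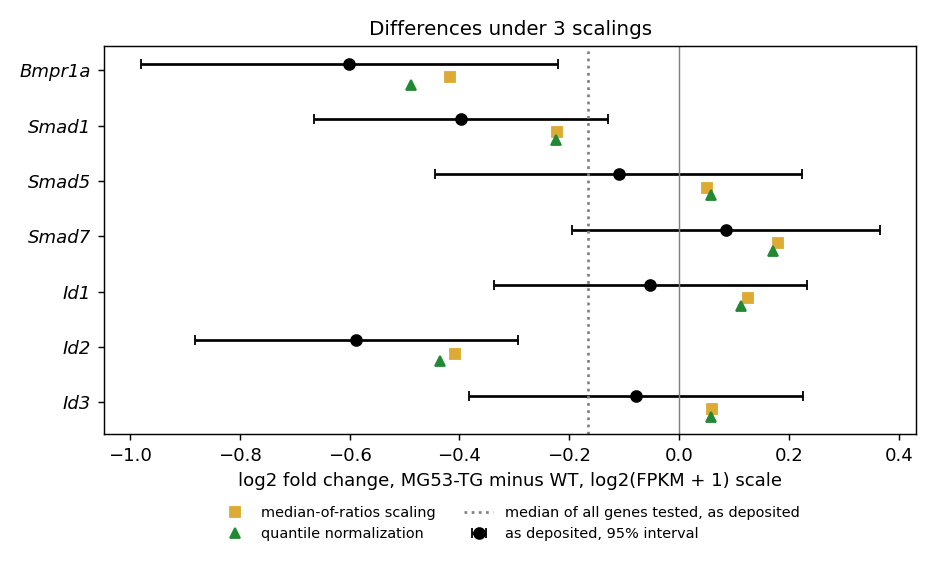
Log2 difference of MG53-TG minus WT for the 7 members tested, as deposited with the 95% interval (black), after median-of-ratios scaling (yellow) and after quantile normalization (green), with the dotted line at the median of all genes (-0.17). Bmpr1a and Id2 stay below 0 under all 3, whereas Id1, Id3 and Smad5 change sign.

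The other genes of the pathway were read from lists of 123 annotated genes, of which 80 had an entry and 62 were tested. Of these 62, 26 were lower, 6 higher and 30 not called, so 51.6% were called against 44.7% of all genes, and their median log2 difference was -0.33 against -0.17. With median-of-ratios scaling 41.0% were called against 40.8% of all genes, and with quantile normalization 40.3% against 42.2%, each with 9 higher and 16 lower. Under both other scalings 16 of the lower and all 6 of the higher genes remained called. Of the 62 genes, 10 averaged under 0.5 FPKM in one group and so passed the filter only through the group where they were high, and of these 6 were called lower and 2 higher. They raise the share called and are among the genes that remained called. The counts above are therefore not read as a difference from all genes. No test is given for these genes below, where they are described by their values. The 10 genes counted as losing their call were Bmpr2, Fam83g, Gdf15, Lemd3, Smad4, Smurf1, Tgfbr1, Usp9x, Zfyve16 and Acvr2b. Acvr2b passed the filter only through WT, so no test is given for it.

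**Figure D5:**
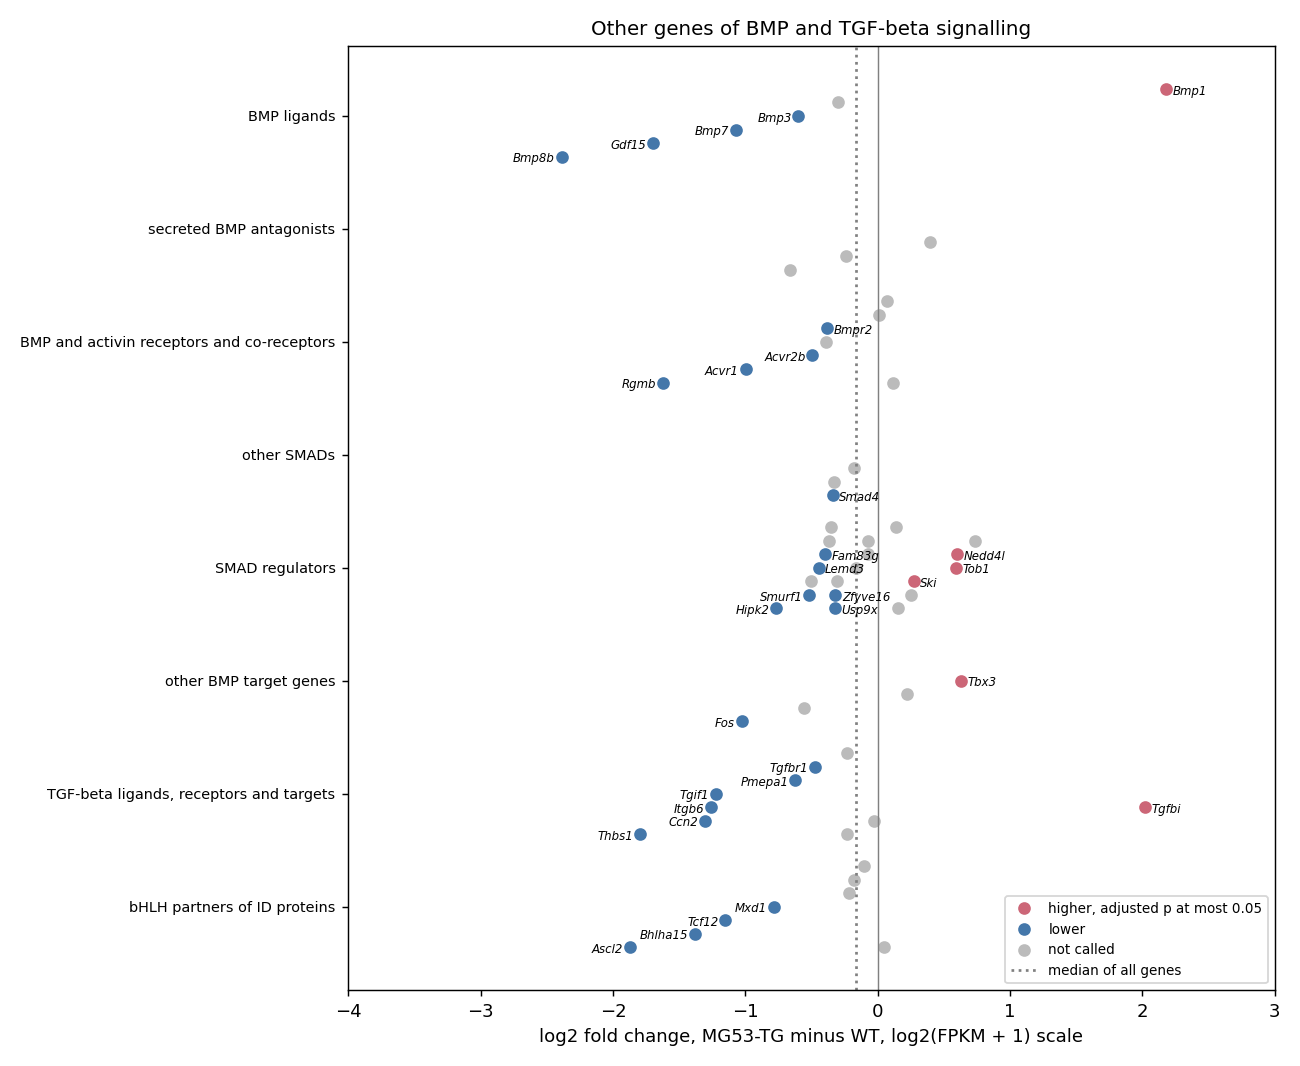
Log2 difference of MG53-TG minus WT for 62 tested genes of 8 lists, with red points higher, blue points lower and grey points not called by limma, and the dotted line at the median of all genes. The called receptor and bHLH genes are all lower, among them Acvr2b and Bhlha15, which passed the filter only through WT. Genes that passed the filter through one group only are not marked.

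Among ligands, 4 of 6 tested genes fell, 1 rose and 1 was not called, against 29.1% lower and 15.6% higher over all genes, and under either other scaling 3 were lower and 1 higher. Bmp8b and Bmp1 are among the genes that passed the filter through one group only. Bmp7, a ligand of the BMP receptors, was at 7.22 to 8.75 FPKM in WT and 2.697 to 3.74 FPKM in MG53-TG (log2 difference -1.07, limma adjusted p = 0.000211). Bmp8b was at 4.07 to 7.88 FPKM in WT and at most 0.677 FPKM in MG53-TG, values that are uncertain because its near-identical neighbour Bmp8a (0.741 FPKM in MG53-TG sample 1, no row elsewhere) could take some of its reads. Bmp3, an atypical ligand that opposes other BMPs, fell from 2.14 to 2.76 FPKM to 0.893 to 1.72 FPKM (-0.60, adjusted p = 0.0114). Gdf15, a stress-induced member of the superfamily that signals through another receptor, fell by 1.70 (adjusted p = 0.0458) with overlapping groups and a single high WT sample (sample 3, 41.35 FPKM). Bmp1 was at most 0.448 FPKM in WT and 3.10 to 6.27 FPKM in MG53-TG, and despite its name it encodes a metalloprotease that cleaves procollagen and the antagonist chordin. Bmp2 was at 2.40 to 3.56 and 1.51 to 3.43 FPKM and was not called, and Bmp4, Bmp5 and Bmp6 had no entry.

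Of the secreted antagonists, Nog, Grem1 and Chrd had no entry, and 0 of 3 tested genes were called by limma. The 1 gene counted as called under either other scaling was Fstl3. It passed the filter only through MG53-TG, so no test is given for it. Fstl3, which binds activins, was at 0.362 to 0.608 FPKM in WT and 0.651 to 1.47 FPKM in MG53-TG and averaged under the minimum of 0.5 FPKM in WT. Twsg1, which modulates BMP binding to chordin, ranged from 1.42 to 8.50 FPKM in MG53-TG and was not called.

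Receptors and co-receptors other than Bmpr1a fell in 4 of 8 tested cases, with a median log2 difference of -0.39, against 29.1% lower over all genes, and 1 of the 4 (Acvr2b) passed the filter only through WT. Under either other scaling 2 of 8 were lower, with medians of -0.22 and -0.24. Rgmb, a membrane-anchored BMP co-receptor, was at 48.3, 28.4, 32.5 and 45.2 FPKM in WT and at 23.9, 20.3, 6.65 and 5.12 FPKM in MG53-TG (-1.62, limma adjusted p = 0.0189). As for Bmpr1a, MG53-TG samples 3 and 4 were lowest. Acvr1, another type I BMP receptor, fell from 4.24 to 6.74 FPKM to 1.43 to 3.74 FPKM (-1.0, adjusted p = 0.00788). Bmpr2, the type II receptor specific to BMPs, fell by 0.38 (adjusted p = 0.0199). The activin receptor Acvr1b (18.5 to 20.7 and 18.4 to 20.3 FPKM) was not called, nor was the RGM receptor Neo1. Bmpr1b, the other BMPR1 receptor, had no entry.

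Of the other SMADs, Smad4, the partner that all signalling SMADs share, was at 18.1 to 19.35 FPKM in WT and 13.8 to 15.4 FPKM in MG53-TG (log2 difference -0.34, limma adjusted p = 0.0109). Its groups did not overlap, but the call was lost under median-of-ratios scaling (adjusted p = 0.252) and quantile normalization (adjusted p = 0.116). Smad3 (adjusted p = 0.0731) and Smad2 (adjusted p = 0.502), which serve TGF-beta and activin, were not called.

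Regulators of SMADs moved in both directions, 6 lower and 3 higher of 20 tested, so 45% were called against 44.7% of all genes, and 1 lower and 5 higher under either other scaling. Tob1, a corepressor that binds BMP-activated SMADs, rose from 28.1 to 36.5 FPKM to 41.4 to 59.1 FPKM (log2 difference 0.59, limma adjusted p = 0.00886). Nedd4l, a ubiquitin ligase for phosphorylated SMADs, rose by 0.60 (adjusted p = 0.0317) and Ski, a corepressor, by 0.27 (adjusted p = 0.0427). Hipk2, a nuclear kinase and corepressor partner, fell from 22.1 to 26.6 FPKM to 11.8 to 16.0 FPKM (-0.76, adjusted p = 0.00151). Smurf1, the ubiquitin ligase that targets SMAD1 and SMAD5, fell by 0.52 (adjusted p = 0.00469; 0.0504 and 0.0633 under the other scalings). Ctdsp1, a SMAD phosphatase, and Ranbp3, a nuclear export factor for SMADs, were not called.

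Of the other BMP targets listed, 4 were tested. Tbx3, a T-box repressor, rose from 4.51 to 6.92 FPKM to 7.66 to 11.4 FPKM (log2 difference 0.63, limma adjusted p = 0.0114), and the immediate early gene Fos fell from 5.27 to 9.57 FPKM to 2.22 to 3.26 FPKM (-1.03, adjusted p = 0.00273). Egr1 and Cdkn1a were not called. WT sample 3, which was highest for Id1 and Id3, was also the highest WT sample for Fos, Egr1 and Cdkn1a but the lowest WT sample for Tbx3 (4.51 FPKM). The targets Msx1, Msx2, Atoh8 and Hamp had no entry.

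Genes of the neighbouring TGF-beta branch fell in 6 of 10 tested cases, and 1 rose, against 29.1% lower and 15.6% higher over all genes. Under either other scaling 5 were lower and 1 higher. Of the 7 called, 3 lower genes (Thbs1, Ccn2 and Itgb6) and the higher gene (Tgfbi) passed the filter only through the group where they were high, so the count is largely theirs. Thbs1, which encodes a matrix protein that activates latent TGF-beta, was at 1.68 to 2.96 FPKM in WT and had no row in any MG53-TG sample. The matricellular gene Ccn2 (1.30 to 1.70 FPKM in WT) also had no row in any MG53-TG sample. Tgif1, a SMAD corepressor, fell by 1.22 (limma adjusted p = 0.000968), and Itgb6, part of an integrin that activates latent TGF-beta, was at 0.828 to 3.52 FPKM in WT and 0.129 to 0.367 FPKM in MG53-TG. Tgfbi had the opposite pattern, with no end row in any WT sample and 2.40 to 4.14 FPKM in MG53-TG. The type I receptor gene Tgfbr1 fell from 6.03 to 8.65 FPKM to 4.63 to 5.12 FPKM (log2 difference -0.47, adjusted p = 0.0139). The type II receptor gene Tgfbr2 was at 27.5 to 36.6 and 16.3 to 41.5 FPKM and was not called.

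The bHLH factors listed as partners or relatives of the targets of ID proteins fell in 4 of 8 tested cases, also under either other scaling, so 50.0% were called against 44.7% of all genes. Tcf12, an E protein bound by IDs, was at 17.5 to 32.4 FPKM in WT and 8.05 to 14.1 FPKM in MG53-TG (log2 difference -1.15, limma adjusted p = 0.00327). Ascl2, the bHLH factor of crypt stem cells and also one of the stem cell markers, fell from 6.06 to 9.22 FPKM to 0.258 to 3.15 FPKM (-1.87, adjusted p = 0.00313). Mxd1, a MAX partner, fell by 0.78 (adjusted p = 0.0161). Bhlha15, of secretory cells, passed the filter only through WT, where it averaged 2.36 FPKM against 0.318 FPKM in MG53-TG. The E protein gene Tcf3 and Hes1 were not called.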

How the data were processed

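RNA sequencing of 8 organoid samples was analysed. Per the labels and the study's methods, the authors trimmed reads with Cutadapt 1.9.1 and mapped them to mm10 with HISAT2 2.0.1, and the notes also name HTSeq 0.6.1 and DESeq2. The authors deposited 1 table of FPKM values per transcript event (starts, ends, skipped exons and others, 20 types) for each sample, and the tool that made the tables was not given in the sources used here. The smallest value was 1e-06, so reads could not be recovered and depth is unknown.

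Of 126875 events with a gene ID, 90.8% met an exon boundary of that gene (GENCODE vM21, GRCm38), 6.13% met another gene only and were dropped, and 3.08% met none and were kept. A gene absent from a sample was missing there if its group's other samples reached a median of 0.5 FPKM, and otherwise 0. Not every start or end is listed, so a gene's value is a lower bound. Groups were compared on log2(FPKM + 1) with limma 3.58.1 (R 4.3.3; lmFit, eBayes with trend) for the 10417 genes averaging 0.5 FPKM or more, and p-values were adjusted after Benjamini and Hochberg and called at 0.05, as in the study. Single genes, ratios and shares were compared by two-sided exact permutation tests over 70 relabellings (35 for Smad6 to Smad7). On simulated data for this comparison, with 200 of 10417 genes changed 2-fold, 65% were recovered with 11 false calls. Python 3.11.15, numpy 2.4.6, pandas 2.3.3, scipy 1.17.1 and biopython 1.88 did the rest.

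Alternatives were another pseudocount (0.1), other filters (none, or averaging 2 FPKM), scalings, gene values and event assignments, a replicate block, and leaving out each sample. The members and lists were chosen with earlier results of these data known. Named genes were all members, Trim72, up to 6 called genes per list averaging 1 FPKM or more and up to 2 abundant uncalled ones, and 3 genes most like each Id gene. Others (Id4, Fstl3, Ccn2, Ski, the genes whose call other scalings lost, Acvr2b, Bmp8a, the marker genes and the genes without an entry) were named after their values were seen. A few genes of the lists are not reported here.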

Additional observations from a re-analysis of the deposited data

Results flagged for a closer look

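Of 33 groups of 4 samples searched, 5 held a sample far from the other 3 by Dixon's criterion at the 95% level, where chance flags about 1 in 20 groups. Id3 in WT sample 3 was at 3.248 FPKM, against 2.39 to 2.42 FPKM in the other WT samples. The log2 ratio of Id1 to Id3 in WT sample 1 was 1.876, under a WT mean of 2.0 for that ratio on the log2(FPKM + 1) scale. Smad6 in WT sample 2 was at 0.2585 FPKM and Smad6 in MG53-TG sample 4 at 0.3942 FPKM, where 5 of the 8 samples had no row for the gene and were taken as 0. With the others of a group at or near 0, any single listed Smad6 value meets this criterion, so the share that chance gives does not apply to these 2 groups. The leading end of Smad1 held 0.01969% of the end FPKM in MG53-TG sample 3 and 93.2% to 99.7% in the other 7 samples, and its share did not differ between the groups by the exact permutation test (p = 0.0571, adjusted p = 0.286). The causes were not tested.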

How the results depend on the processing

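Id2 was called lower in all 22 alternative fits with limma (log2 differences without 1 sample from -0.66 to -0.49), and Bmpr1a in 20 of 21, from -0.75 to -0.50 without 1 sample. Both kept the call in every fit without 1 sample. The 22 and 21 fits include those with MG53-TG samples 1 and 2 only and with samples 3 and 4 only, which were chosen after seeing the data. With samples 1 and 2 only, Bmpr1a was at -0.30 and Smad1 at -0.28. With end events only Smad1 was at -0.19 and 1 member was called, since the ends of Bmpr1a and Smad1 are barely listed. Smad1 lost its call under median-of-ratios scaling (-0.22) and quantile normalization (-0.22). Without 1 sample it ranged from -0.45 to -0.32 and was called in 4 of 8 fits, and 2 to 3 members and 3720 to 4928 genes were called, against 4655 in the fit of all samples.

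Uncalled differences changed sign for Id1 (0.126 under median-of-ratios scaling, 0.112 under quantile normalization, 0.0451 with MG53-TG samples 3 and 4 only, and -0.12 to 0.0383 without 1 sample), Id3 (0.0597, 0.058 and 0.0499, and -0.15 to 0.000468) and Smad5 (0.0502 and 0.0571, and 0.00717 by the highest single event). The log2 ratio of Id1 to Id3 was -0.0365 with end events only. Without 1 sample, differences in the share of the leading start ranged from -7.97 to 0.568 percentage points for Smad1. They ranged from -5.69 to 0.477 for Smad5, from -2.16 to -0.745 for Bmpr1a and from 3.41 to 10.5 for Id1. For the leading end of Smad1 the range was -35.4 to -2.44 percentage points. Log2 differences in level ranged from -0.231 to -0.0225 for Smad5 and from 0.0461 to 0.126 for Smad7 without 1 sample.

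With the replicate number as a block, Smad1 stayed at -0.40 but was not called (adjusted p = 0.0553), while Bmpr1a and Id2 were, and 4240 genes were called. Deviations of same-numbered samples from their group means had correlations of 0.0995, -0.0210, 0.0959 and -0.0614. These values do not decide whether same-numbered samples were prepared together, and the labels do not say so. Depth is unknown, so the precision of low values such as those of Smad6 and Smad7 cannot be given.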
